A study of Caenorhabditis elegans with 4 samples.

Results

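Of the 4203 nuclear TBP-1 peaks in the peak list of the whole series, 1085 lay close to another one, and these closely spaced peaks are described here. They were chosen by their positions alone: on each chromosome, a peak was taken when the start of the later peak minus the end of the earlier one was 1000 bp or less for at least 1 neighbour. They made up 25.8% of the nuclear peaks (95% Wilson interval 24.5 to 27.2), and the other 3118 are called isolated. The peaks came from chromatin immunoprecipitation and sequencing (ChIP-seq) of Caenorhabditis elegans embryos with SDQ0839 TBP1, an affinity-purified rabbit polyclonal antibody against TBP-1. The series holds 2 TBP-1 ChIP samples and 2 input DNA samples. All 4 are wild-type N2, the standard laboratory strain, collected as embryos of mixed stages from a population of males and hermaphrodites, and the series' design text gives a temperature of 20 °C. Peak lists were used for ChIP replicate 1 (1684 nuclear peaks), for ChIP replicate 2 (2660) and for the whole series. No list of the inputs was used here, so no background measured in input can be set beside the values. No label states that the replicates were grown as different cultures. An embryo lysate mixes all cell types and stages, so peaks that lie side by side in a list need not have been bound in the same cells.

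TBP is the subunit of TFIID that binds the TATA box, and related complexes use it at promoters of RNA polymerases I and III as well, so its ChIP peaks are usually read as places where transcription initiation complexes assemble. In worms, initiation sites can lie near each other for several known reasons: divergent genes share an upstream region, a gene can have more than 1 start, small RNA genes such as tRNA genes occur in groups, and histone and ribosomal RNA genes lie in clusters. Whether neighbouring sites appear as separate peaks or as a single one depends on the fragment length and on the peak caller. Positions are on the WormBase WS220 build. A genome and gene annotation of that build were not used here, so no run was assigned to a gene, exon or promoter, and no sequence is shown.

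The closely spaced peaks formed 453 runs, a run being a set of consecutive peaks linked by gaps within the limit. Pairs were the common form, with 351 runs (77.5%) and 702 of the 1085 peaks. Runs of 3 peaks numbered 65, runs of 4 numbered 21, runs of 5 numbered 7 and runs of 6 numbered 6. Only 3 runs in the list were longer, with 7, 12 and 14 peaks. The 16 runs of 5 or more peaks thus held 104 peaks, or 9.59% of the closely spaced ones.

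The 632 gaps inside runs had a median of 378 bp, with quartiles of 171 and 681.5 bp. The shortest was 45 bp. Gaps crowded at the short end: 230 were up to 250 bp long, 150 between 250 and 500 bp, 118 between 500 and 750 bp and 134 between 750 and 1000 bp. In bins of 100 bp the counts were 89, 94 and 90 in the first 3 bins and 41 to 57 in the next 6. The last bin inside the limit, from 900 to 1000 bp, held 70 gaps, and the first bin outside it held 36. The limit of 1000 bp therefore cuts through a part of the distribution that is well filled on its inner side. Most isolated peaks were far from it, and their nearest neighbour lay at a median of 8187.5 bp.

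**Figure D1:**
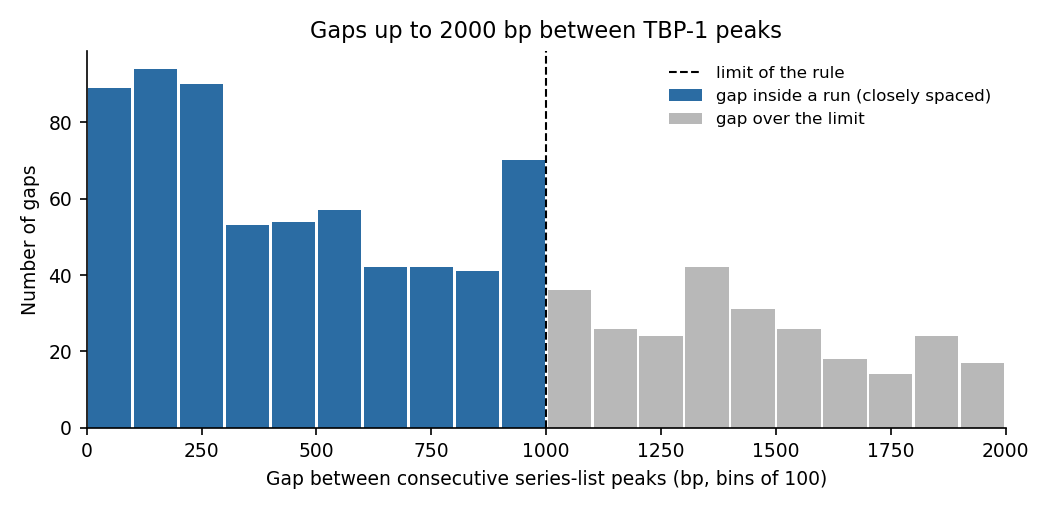
Number of gaps between consecutive nuclear series-list peaks (vertical axis) by gap length in bins of 100 bp up to 2000 bp (horizontal axis), with gaps inside runs in blue, gaps over the limit in grey and the limit of 1000 bp as a dashed line. The first 3 bins hold 89, 94 and 90 gaps, and the bin just inside the limit holds 70 against 36 just outside it.

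The 5 pairs just inside and the 5 just outside the limit are given as examples. The longest gap inside the limit, 1000 bp on III, separated a peak of 211 bp and score 6.46 (5636048 to 5636258) from a peak of 382 bp and score 157.7 (5637258 to 5637639). The next were 999 bp on II (scores 125.67 and 4.77), 997 bp on III (22.22 and 32.83), 997 bp on X (7.08 and 11.91) and 996 bp on III (195.81 and 5.89). Just outside, a gap of 1003 bp on III separated scores of 202.01 and 6.46. It was followed by 1006 bp on I (21.53 and 167.98), 1007 bp on V (12.62 and 5.16), 1007 bp on X (20.78 and 133.73) and 1008 bp on III (9.7 and 10.78). Both sides hold pairs of a strong and a weak peak as well as pairs of weak peaks, and none of the 10 pairs was under a shared replicate peak. The score is the authors' own value for each peak, on a scale that is not stated, and it is used here only to rank peaks within a list.

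Runs were compact. Their span, measured from the start of the first to the end of the last peak, had a median of 1373 bp (quartiles 1000 and 1867) and a range of 348 to 12249 bp. Peaks covered a median of 60.1% of the span. A pair spanned a median of 1227 bp, a run of 3 peaks 2068 bp and a run of 5 or more 4062.5 bp.

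Closely spaced peaks were somewhat wider than isolated ones. Their median width was 305 bp (quartiles 213 and 488), against 260 bp (189 and 386) for isolated peaks. As a result they held 30.1% of all base pairs under peaks with 25.8% of the peaks. The rule favours wide peaks, since it measures gaps between peak edges. With members chosen by distance of centres their median width was 287 bp. That setting in turn disfavours wide peaks, whose centres lie further apart. The width of isolated peaks under it is not given here. The median score was 13.24 for closely spaced peaks and 11.38 for isolated peaks, and the lower quartiles, 5.89 and 5.9, were alike. The upper quartiles were 51.89 and 34.6. The list was also divided by score into 5 classes of nearly equal size. In the strongest class 30.7% (258 of 841, 27.7 to 33.9) were closely spaced, and in the other 4 classes 23.6% to 25.8%. These are descriptions of the list that also chose the peaks, and no test was made on them.

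Scores differed with the number of peaks in a run. Peaks in pairs had a median score of 15.3, peaks in runs of 3 had 13.58 and peaks in runs of 4 or more had 8.095. Widths went the other way, with medians of 288, 326 and 386.5 bp. The longer runs thus held many weak but comparatively wide peaks, although several of them also held very strong ones.

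All 6 nuclear chromosomes carried runs. X had the most, with 104 runs and 262 of the 1085 closely spaced peaks (24.1%, 21.7 to 26.8), against 680 of the 3118 isolated peaks (21.8%, 20.4 to 23.3). On V, 200 of 687 peaks were closely spaced (29.1%, 25.8 to 32.6), and on X 262 of 942 (27.8%, 25.05 to 30.8). The share was 26.4% on IV, 24.8% on II and 24.2% on III. It was 21.5% on I (144 of 671, 18.5 to 24.7). The order of these shares does not follow the crowding of peaks on the chromosomes. V had the fewest peaks per Mb of the 6, at 32.8, and the largest share of closely spaced ones, while I had 44.5 peaks per Mb and the smallest share. X had the most peaks per Mb, at 53.2, and the share next to the largest. Runs per Mb followed the crowding more closely. They were 5.87 on X, 4.93 on III, 4.46 on IV, 4.38 on I, 3.82 on V and 3.73 on II. Peaks per Mb, in the same order, were 53.2, 47.2, 39.4, 44.5, 32.8 and 36.9. Runs of 5 or more peaks lay on V and X (5 each), II (3), IV (2) and III (1), and I had 0.

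Along the autosomes, 54.4% of the closely spaced peaks (448 of 823, 51.0 to 57.8) were in the middle 50% of the chromosome length, against 51.1% of the isolated ones (49.2 to 53.1). On X the values were 42.7% (112 of 262, 36.9 to 48.8) and 43.7% (40.0 to 47.4). Wilson intervals cover the counting of peaks only. They treat peaks as independent, which neighbours in a run are not, and the sets were not tested against each other because positions chose them.

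Neighbours in a run often had scores of a like rank. The ranks of the scores of the 632 neighbouring pairs had a Spearman's rho of 0.44, against 0.088 for the 3565 consecutive pairs over 1000 bp apart. For width the values were 0.22 and 0.042. The median difference between neighbours was 15.4 percentile points of the score inside runs and 27.2 points outside. These correlations describe neighbouring points of 1 list, which may share reads, and carry no test. The stronger neighbour was also the wider one in 467 of 628 pairs inside runs (74.4%, 70.8 to 77.6). This share was not computed for pairs over 1000 bp apart. Width rose with score in isolated peaks too, from a median of 181 bp in the weakest class to 469 bp in the strongest. Among the runs of 2 peaks, the left peak was the stronger in 185 of 351 (52.7%, 47.5 to 57.9), an interval that holds equal shares of left and right.

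**Figure D2:**
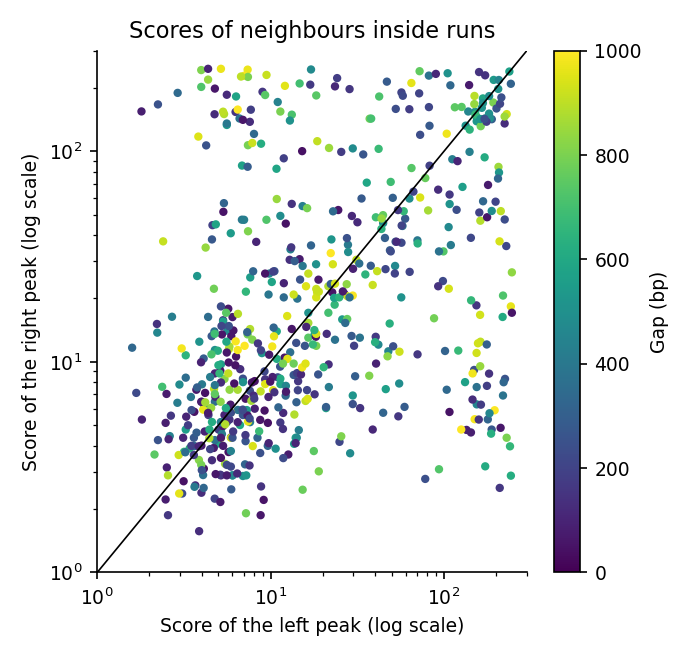
Score of the right peak (vertical axis) against score of the left peak (horizontal axis), both on log scales, for the 632 neighbouring pairs inside runs, with the gap in bp as colour and a line of equal scores. Most points lie in a cloud along the line, and groups of points at the upper left and lower right are pairs of a very strong and a weak peak.

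Relative to the median score of the list, 11.85, the runs fell into 3 kinds of like size. In 167 runs (36.9%) every member was above the median, in 167 the members were on both sides of it, and in 119 (26.3%, 22.4 to 30.5) none was above it.

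The replicate lists divided these runs differently. Replicate 2 covered many of them with a single peak: in 170 of 453 runs (37.5%, 33.2 to 42.1) 1 replicate 2 peak overlapped every member by at least 1 bp. In replicate 1 this was so in 29 runs (6.40%, 4.49 to 9.04). Over all consecutive pairs of nuclear series-list peaks, 6.50% were joined by 1 replicate 2 peak and 1.91% by 1 replicate 1 peak. Inside runs, 270 of 632 neighbouring pairs (42.7%) were joined in replicate 2 and 77 (12.2%) in replicate 1, against 3 of 3565 pairs over the limit in each replicate. Nearly all joining in both lists thus concerned closely spaced peaks, which the definition of a run favours, since a long gap needs a wide peak to bridge it.

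Replicate 1 had 2 or more peaks over 153 runs (33.8%), 1 peak over only some members in 127 (28.0%) and no peak over 144 (31.8%). Replicate 2 had 2 or more peaks over 134 runs (29.6%), 1 peak over some members in 65 (14.3%) and no peak over 84 (18.5%). Of the 170 runs that replicate 2 covered with 1 peak, replicate 1 showed 72 as 2 or more peaks, 49 through 1 peak over some members, 38 not at all and 11 also as 1 peak. The 29 runs under 1 replicate 1 peak included 18 in which replicate 2 had no peak. The libraries' lists differ in peak width as a whole, with medians of 511 bp in replicate 1 and 844.5 bp in replicate 2, and the part of this difference in the joining of runs was not tested.

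Gap length went with joining in both lists. Replicate 2 joined 66.5% (60.2 to 72.3) of neighbours with gaps up to 250 bp, 62.7% (54.7 to 70.0) of those between 250 and 500 bp, 14.4% (9.19 to 21.9) of those between 500 and 750 bp and 4.48% (2.07 to 9.42) of those between 750 and 1000 bp. Replicate 1 joined 28.3% (22.8 to 34.4), 6.67%, 0.847% and 0.746% in the same bins. Joining in replicate 2 therefore dropped sharply at gaps of about 500 bp, and in replicate 1 at about 250 bp. Where both neighbours were found in replicate 2, it joined 153 of 155 pairs with gaps up to 250 bp (98.7%) and 94 of 109 in the next bin (86.2%). Where both were found in replicate 1, it joined 65 of 116 (56.0%) and 10 of 65 (15.4%).

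**Figure D3:**
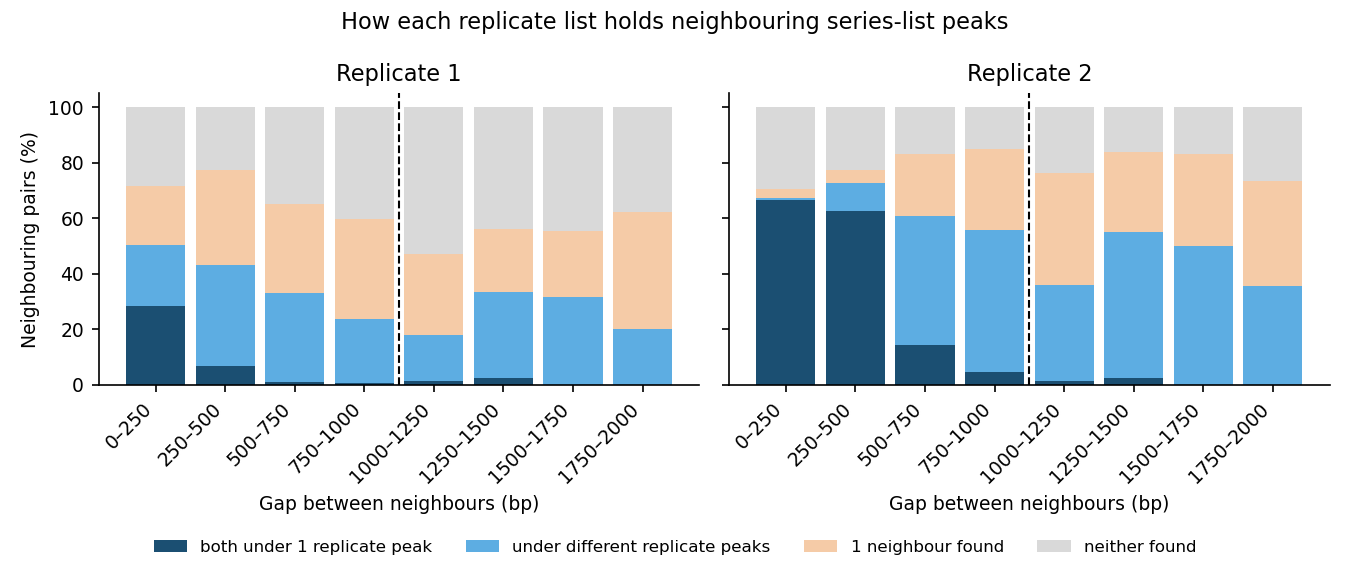
Share of neighbouring series-list pairs (vertical axis, percent) by gap in bins of 250 bp up to 2000 bp (horizontal axis) that lay under 1 replicate peak, under different replicate peaks, with 1 neighbour found or with neither found, for replicate 1 (left) and replicate 2 (right); the dashed line is the limit of 1000 bp. The darkest part, neighbours under 1 peak, reaches 66.5% in the first bin of replicate 2 and 28.3% in that of replicate 1, and is at or below 2.30% in every bin beyond the limit.

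A replicate 2 peak over a whole run had a median width of 1659 bp and exceeded the run's span by a median of 513.5 bp. Replicate 2 peaks over isolated peaks had a median of 835 bp. The 29 replicate 1 peaks over whole runs had a median of 1538 bp and exceeded the span by 109 bp. Isolated peaks were rarely split: 4 of 3118 lay under 2 or more replicate 1 peaks, and 0 did in replicate 2, which allows a share of up to 0.0962%.

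The runs that replicate 1 showed as 2 or more peaks had a median top score of 133.29, and those with 1 peak over some members had 47.3, with a highest value of 246.25. The median was 11.78 for runs under 1 replicate 1 peak and 10.96 for those with no replicate 1 peak. Of the 10 runs with the highest top score, 8 had 1 replicate 1 peak over some members and 2 had 2 or more peaks. In replicate 2 the medians were 84.28 for 2 or more peaks, 18.96 for 1 peak over some members, 51.24 for 1 peak over all and 6.865 for no peak. Among the 167 runs with every member above the list's median score, replicate 1 had 2 or more peaks over 114 (68.3%, 60.9 to 74.8) and a single peak over 5. Replicate 2 had 2 or more peaks over 79 of them (47.3%, 39.9 to 54.9) and a single peak over 78.

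Taking members rather than runs, 576 of the 1085 closely spaced peaks (53.1%, 50.1 to 56.0) overlapped a replicate 1 peak, against 1091 of the 3118 isolated ones (35.0%, 33.3 to 36.7), with a background of 39.7% over all nuclear peaks. In replicate 2 the shares were 71.98% (69.2 to 74.6) of closely spaced and 63.6% (61.9 to 65.3) of isolated peaks, with a background of 65.8%. Over the 2 replicates, the mean share found was 62.5% ± 13.4 (SD, n = 2) for closely spaced and 49.3% ± 20.3 (SD, n = 2) for isolated peaks. Both sets were measured in the same libraries, and closely spaced peaks were 18.1 percentage points higher in replicate 1 and 8.35 points higher in replicate 2. Neither replicate had 184 of the closely spaced peaks (17.0%, 14.8 to 19.3) and 1035 of the isolated peaks (33.2%, 31.6 to 34.9), against 29.0% of all nuclear peaks. The way the series list was made is not given, so the replicate lists were not treated as independent of it, and the differences carry no test.

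The shares differed by class. In the strongest class, with scores of 55.14 and above, 257 of 258 closely spaced and 581 of 583 isolated peaks were found in replicate 1, and 257 of 258 and 583 of 583 in replicate 2. In the weakest class, with scores up to 5.18, replicate 1 had 23.0% (17.9 to 29.1) of closely spaced and 6.57% (4.88 to 8.79) of isolated peaks. In the next class it had 32.7% (26.5 to 39.4) and 4.04% (2.77 to 5.85). Replicate 2 had 35.0% (29.0 to 41.6) and 25% (21.8 to 28.5) in the weakest class, and 52.8% (45.8 to 59.6) and 35.2% (31.7 to 39.0) in the next. In the middle class, replicate 1 had 30.5% of closely spaced and 12.2% of isolated peaks, and replicate 2 had 72.5% and 65.5%. In the class below the strongest, replicate 1 had 67.8% and 58.7%. The order turned there in replicate 2, with 93.8% of closely spaced and 95.8% of isolated peaks.

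**Figure D4:**
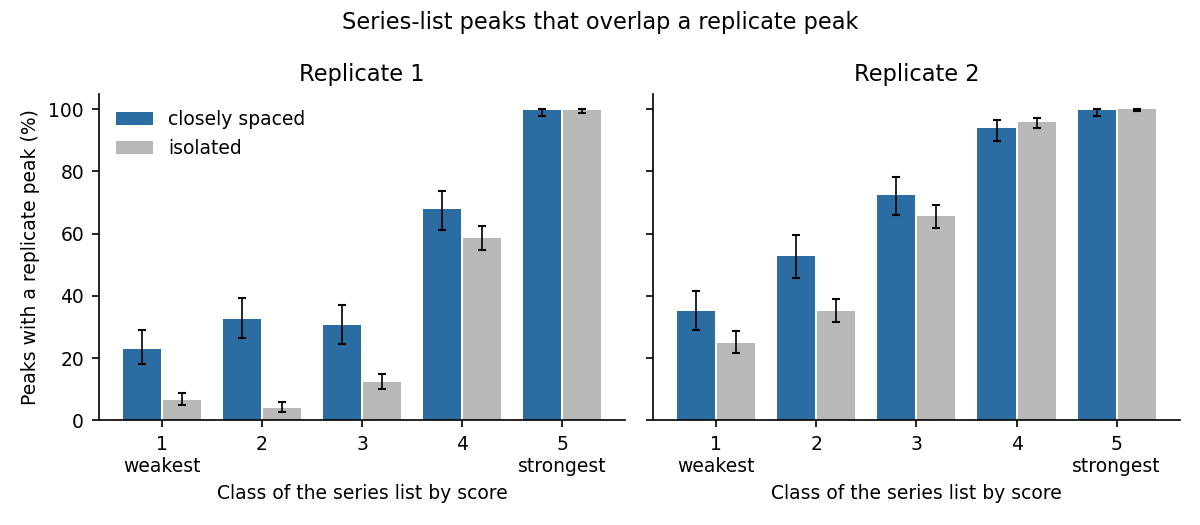
Share of series-list peaks that overlap a peak of replicate 1 (left) or replicate 2 (right) by at least 1 bp (vertical axis, percent) in each of 5 classes of the list by score (horizontal axis), for closely spaced peaks in blue and isolated peaks in grey; error bars are 95% Wilson intervals. In the 2 weakest classes the closely spaced peaks of replicate 1 are at 23.0% and 32.7%, above isolated peaks at 6.57% and 4.04%, and in the strongest class the sets are within 1 percentage point of each other in both replicates.

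Many members, strong and weak, were found only through a replicate peak that also lay over a neighbour. In replicate 2 this was so for 484 of all 1085 (44.6%), and 297 (27.4%) had a peak of their own. The shared part there rose from 33.4% in the 2 weakest classes to 59.7% in the strongest. In replicate 1 it was 120 of 1085 (11.1%) and fell from 17.1% to 3.88%. In the 2 weakest classes, 181 of 416 closely spaced peaks (43.5%, 38.8 to 48.3) were found in replicate 2, against 383 of 1268 isolated peaks (30.2%, 27.7 to 32.8). Of those 416 peaks, 139 (33.4%) shared every one of their replicate 2 peaks with another member, and 42 (10.1%, 7.56 to 13.4) had a replicate 2 peak of their own. These 2 ways of being found are not compared with isolated peaks, which by their distance could hardly share a replicate peak. In replicate 1, 44 of 416 (10.6%, 7.97 to 13.9) had a peak of their own and 71 (17.1%) shared one. In all, 115 of the 416 were found there (27.6%), against 67 of 1268 isolated peaks (5.28%, 4.18 to 6.66). In pairs, the stronger peak was found in replicate 1 in 211 of 351 cases (60.1%) and the weaker in 126 (35.9%). In replicate 2 the stronger was found in 285 (81.2%) and the weaker in 244 (69.5%). Over all nuclear peaks the shares were 39.7% in replicate 1 and 65.8% in replicate 2. The peaks of a pair were ordered here by score, and stronger isolated peaks were found more often too.

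Several long runs of weak peaks had called peaks in the list of a single library. Of the 16 runs of 5 or more peaks, 9 had no score of 20 or more, a bound chosen after the values were seen. Among these 9, 6 were found in replicate 1 only, 1 in replicate 2 only and 2 in both. The other 7 runs, with a top score of 20 or more, were found in both replicates. Over all 453 runs, 267 (58.9%) had a peak in both replicates, 42 (9.27%) in replicate 1 only, 102 (22.5%) in replicate 2 only and 42 in neither. A run counts here when any of its members was found, which favours runs over single peaks. As single peaks, 42.0% of closely spaced and 31.8% of isolated ones were found in both replicates. Replicate 1 alone had 11.1% and 3.18% of them, and replicate 2 alone 29.95% and 31.8%. The median top score of the runs in both was 107.5, against 7.995 for replicate 1 only, 12.63 for replicate 2 only and 5.465 for neither. Without the 16 long runs, 21.8% of the closely spaced peaks in the 2 weakest classes were found in replicate 1 (77 of 353), against 27.6% with them (115 of 416).

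The longest run by number of peaks lay on X from 7351349 to 7360742 and had 14 peaks. Their scores lay between 3.22 and 7.98, their widths between 170 and 1098 bp and their gaps between 46 and 605 bp, and together they covered 72.4% of 9394 bp. Replicate 1 had 12 peaks there, and these overlapped 10 of the 14 members. Their scores lay between 51.2 and 199.04. Replicate 2 had no peak in the region. This run is thus a dense stretch of low peaks, with called peaks in the list of only 1 of the 2 libraries. Whether reads of replicate 2 contributed to it was not examined.

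The run of 12 peaks on II, from 13817637 to 13829678, was of another kind. It held 6 broad and strong peaks, 1088 to 1175 bp wide with scores of 137.93 to 154.42, whose starts followed each other at 1594 to 1851 bp (mean 1779 ± 108, SD over 5 distances). Beside them lay 4 narrow peaks of 146 to 231 bp with scores of 4.62 to 7.59, and at the right end 2 peaks of 627 and 483 bp with scores of 44.56 and 45.59. Replicate 1 had 8 peaks in the run, 1 for each of the 8 stronger members, of which 1 also reached a narrow member, and the 6 over the broad ones scored 1386.52 to 1768.42. Replicate 2 had a single peak of 12853 bp over all 12 members, from 13817026 to 13829878, with a score of 3100. What lies under this run was not examined. A pair followed to its right on II, from 13834287 to 13836145, with scores of 246.22 and 26.6, which replicate 1 had as 2 peaks and replicate 2 as a single peak of 2422 bp.

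Other long runs were weak throughout. On IV, 7 peaks from 11033583 to 11036575 had scores of 3.99 to 9.63 and lay under 1 replicate 2 peak of 3347 bp, while 3 replicate 1 peaks overlapped 5 of the 7. On II, 6 peaks from 4641186 to 4644629 with scores of 2.48 to 12.21 lay under 1 replicate 2 peak of 4578 bp and under 4 replicate 1 peaks that followed each other almost without a break. In both of these weak runs the series list and replicate 1 divided what replicate 2 held as a single broad peak.

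A further 3 weak runs of 6 peaks had called peaks in replicate 1 alone. On V, from 6171670 to 6176134, scores were 4.11 to 14.54, and 1 replicate 1 peak of 4755 bp lay over all members. On X, from 14385034 to 14389654, scores were 3.85 to 9.95 under 1 replicate 1 peak of 4819 bp with a score of 1100.69. On II, from 3941862 to 3946414, scores were 4.38 to 6.66, and 5 replicate 1 peaks overlapped 5 of the 6 members. In the first 2 of these, the series list had 6 peaks where replicate 1 had a single broad one.

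Long runs with strong members were found on V and X. On V, 6 peaks from 9086723 to 9091711 included scores of 188.3 and 198.33, flanked by members of 71.89, 57.6 and 44.17 and by 1 weak member of 4.77. Replicate 1 had 4 peaks there and replicate 2 had 2, which lay over all 6 members. Also on V, from 9340963 to 9344622, a peak of score 189.27 was preceded by 5 peaks with scores of 2.91 to 9.64. Replicate 1 found only the strong one, and replicate 2 covered it and 3 of the weak peaks with 1 peak of 2887 bp and the other 2 with another. On X, from 16928021 to 16933189, peaks of 223.67 and 146.19 were followed by 3 with scores of 2.56 to 8.81, and each replicate had the 2 strong peaks as separate peaks and none of the weak ones.

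The runs with the highest top scores were mostly pairs of a very strong and a weak peak. Of the 10 runs with the highest top score, 9 were pairs, and in these the partner scored 2.88 to 26.6. The pair on V from 19642850 to 19644279 had scores of 246.25 and 17.1 with a gap of 55 bp. The pair on X from 13119779 to 13121633 had a peak of 246.25 at a gap of 970 bp from one of 5.17. The pair on IV from 5966565 to 5967430 had 246.22 and 4.36 with a gap of 95 bp. Replicate 1 had the strong peak and not the partner in each of these 3. Replicate 2 covered both peaks with 1 peak on V and IV and with 2 peaks on X. The 9 pairs did not all follow gap length. The pair on II, with a gap of 833 bp, lay under 1 replicate 2 peak. The pair on I from 8223046 to 8224791, with a gap of 476 bp, had 2.

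Replicate 1 missed the partner in 8 of the 9 pairs, all except the one on II. On I, pairs at 8223046 to 8224791 (scores 17.1 and 244.44), 10592871 to 10594183 (240.2 and 3.97) and 13160594 to 13162439 (242.88 and 18.33) each had 2 separate replicate 2 peaks. The pair on I at 10925905 to 10927839 (7.37 and 244.04) and the pair on III at 535043 to 536564 (242.99 and 2.88) had 1 replicate 2 peak, over the strong member only. The weaker partner was thus found in replicate 2 in 7 of 9 pairs and in replicate 1 in 1 of 9, beside 69.5% and 35.9% of the weaker peaks of all pairs. In 3 of the 7 it lay under the same replicate 2 peak as the strong member, and in 4 it had a replicate 2 peak of its own. The run on II at 5291040 to 5293640 was the exception in form, with 2 strong peaks of 242.88 and 209.07 and a gap of 315 bp between them, beside a weak one of 3.98. Replicate 1 separated the strong peaks and replicate 2 joined them under 1 peak of 2169 bp.

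In 62 runs, 2 or more peaks were present in both replicates, and 3 pairs of strong peaks are given as examples. On II, from 7001296 to 7003381, scores of 229.84 and 150.02 with a gap of 926 bp matched 2 peaks in replicate 1 (2191.56 and 1106.36) and 2 in replicate 2 (3100 and 1652.12). On IV, from 16774965 to 16776411, 104.92 and 234.58 with a gap of 506 bp matched 491.81 and 2103.85 in replicate 1 and 594.85 and 2240.58 in replicate 2. On V, from 15550453 to 15552102, 72.3 and 239.87 with a gap of 757 bp matched 80.99 and 2325.99 in replicate 1 and 465.55 and 3100 in replicate 2. In all 3 pairs the same neighbour was the stronger in the series list and in both replicates. The series list was taken as pooled over these replicates, so its order is not independent of theirs.

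At the other end, the strongest of the 42 runs with no replicate peak had a top score of 17.94. It was a pair on I from 10266719 to 10271695 with widths of 743 and 3649 bp. The next lay on X from 14243594 to 14244709 (top score 17.1), on V from 8699305 to 8702707 (14.97, 3 peaks up to 1936 bp wide), on I from 10871475 to 10872857 (12.34) and on X from 653281 to 654605 (11.91). Broad, low peaks thus occurred among them beside narrow ones.

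The shortest gaps inside runs were of 45 and 46 bp. Gaps of 45 bp were found on IV between 7402279 and 7402324, on V between 9342636 and 9342681 and on V between 16451061 and 16451106, and gaps of 46 bp on II between 3797104 and 3797150 and on X between 7354496 and 7354542. The 10 peaks beside these 5 gaps scored 2.71 to 18.24. A further gap of 46 bp on X tied with the last of these and separated scores of 15.2 and 100.1. Of the first 5, replicate 2 joined 3 neighbours and replicate 1 joined 1, and replicate 1 had the neighbours on X under different peaks.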

How the data were processed

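The deposited peak lists of the TBP-1 immunoprecipitations were the starting point. Peaks carry 1 score each, given by the authors on a scale that is not stated, so scores were used as ranks within a list. Per the file headers, coordinates refer to WormBase WS220, and each peak's line credits MACS (replicates) or MACS v2 (whole series). Per the submitters' processing notes, BWA and ce10 were used. Not given in the sources used here were the caller's settings, control and filters, and how the series list was made. It was taken as pooled over the ChIP samples, which is an assumption. Read depth is unknown. Wider fragments or a looser joining of nearby signal in the calling can give fewer, wider peaks and so fewer close neighbours. This was not tested here.

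Samples were grouped by title. Mitochondrial peaks were left out. Runs were built from gaps of 1000 bp or less, and a replicate peak counted as overlapping from 1 bp. Chromosome length was the end of the last peak in any list. The Wilson intervals are at 95%. The bound for a count of 0 is 3 counts. No test was made, since positions of the same list chose the peaks. The members and lists were chosen with earlier results of these data known. Runs were named by a rule: most peaks, highest top scores, shortest and longest gaps, no replicate peak, and 2 or more peaks in each replicate. Alternatives tried were limits of 500 and 2000 bp, distance of centres, stronger peaks, pairs only, other overlaps and peaks over 3000 bp left out. Run finding was tested on simulated data. Python 3.11.15, numpy 2.4.6, pandas 2.3.3, scipy 1.17.1 and matplotlib 3.10.9 were used.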

Additional observations from a re-analysis of the deposited data

Results flagged for a closer look

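The mitochondrial chromosome, which the comparisons leave out, had peaks in the series list. Its 11 peaks all lay within 1000 bp of another and formed 1 run of 11, with gaps of 193 to 887 bp and scores of 3.71 to 36.03. This was given a closer look because the peaks lie outside the chromosomes compared, with no test of the count. Replicate 1 had 1 mitochondrial peak and replicate 2 had 0. No group had enough samples for a search for outlying samples.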

How the results depend on the processing

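Most values moved beyond their interval under at least 1 alternative, many by construction, since a new limit redraws the runs. The share of closely spaced peaks was 15.5% with a limit of 500 bp, 35.8% with 2000 bp, 17.2% by distance of centres, 20.8% with the stronger 50% of peaks, 16.7% with pairs only and 23.8% without peaks under replicate peaks over 3000 bp. In the same order, the median gap, an alternative added after seeing the data, was 204.5, 617, 244, 477, 499 and 437 bp. The median score was 11.38 with 500 bp, 10.49 by centres, 51.5 with stronger peaks and 15.3 with pairs only. The median width was 287 bp by centres, 400 bp with stronger peaks and 288 bp with pairs only, and the X share 21.7% with pairs only. Members found in replicate 1 were 59.1% with 500 bp, 48.8% with 2000 bp, 78.7% with stronger peaks, 48.0% with pairs only and 49.9% without peaks under broad ones. In replicate 2 they were 94.7% with stronger peaks and 75.4% with pairs only. Runs under 1 replicate 1 peak were 13.2% with 500 bp, 3.59% with 2000 bp, 10.3% by centres, 4.10% with stronger peaks, 4.25% without peaks under broad ones and 4.19% with replicate peaks up to 3000 bp. In replicate 2 they were 67.4%, 24.1%, 53.7% and 47.7% under the first 4 of these. Members found in at least 1 replicate, 83.0%, ranged from 53.1% to 71.98% with either replicate left out, and runs under 1 peak in at least 1 replicate, 41.5%, from 6.40% to 37.5%. In all, 40 of 64 values moved, and 24, among them the 37.5% without replicate 1, stayed within the interval of the value reported. Replicate 2 covered a larger share of runs with 1 peak than replicate 1 in each of the 8 alternatives run for both. Closely spaced peaks were found more often than isolated ones in both replicates under each alternative that was compared, by 2.05 to 23.0 percentage points. No alternative left out members found only through a replicate peak that also lay over a neighbour, so the excess includes them. By class of score it was not constant. In the class below the strongest, replicate 2 had 93.8% of closely spaced and 95.8% of isolated peaks. No paired analysis was possible because no peak lists of the input libraries were used. Unknown read depth limits what a missing weak peak shows.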

Other observations

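Each replicate list, searched by the same rule, had closely spaced peaks of its own. They were 420 of 1684 in replicate 1 (24.9%, 22.9 to 27.1) and 452 of 2660 in replicate 2 (17.0%, 15.6 to 18.5). Of these, 350 (83.3%) in replicate 1 and 288 (63.7%) in replicate 2 overlapped a closely spaced series-list peak. Among replicate peaks with no neighbour within 1000 bp, 12.7% in replicate 1 and 10.1% in replicate 2 did.

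The outermost peaks of the chromosomes were partly members. The first series-list peak started at base 1 on 6 of 6 chromosomes, with scores of 4.28 to 59.2, and only the one on I had a neighbour within the limit. The last peak was a member on I, III and IV. The right end of I held the run with the longest span in the list, from 15060206 to 15072454, made of a peak of 11179 bp and, after a gap of 277 bp, one of 794 bp. Replicate 1 had a peak over the first of these and replicate 2 over neither.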
